A study of Mus musculus with 8 samples.

Results

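The genes examined were 44 genes of motile cilia and ciliated cells, taken by symbol from a list of proteins that build the beating cilium, of the factors that switch on their genes, and of a few other genes of multiciliated cells. All 44 were found among the 55385 gene rows of the mRNA-seq. The tissue was whole lung of C57BL/6 mouse fetuses at E18.5. In tracheal occlusion (TO) fetuses the trachea, together with one carotid artery and one jugular vein, was tied off through the uterine wall at E16.5, and the lungs were compared with those of control fetuses at the same age. There were 4 control and 4 TO lungs, no allele was altered in either group, and what was done to the control fetuses was not given in the sources used here. The question put to the counts was whether the mRNA of ciliated cells differed between TO and control lung.

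Motile cilia are whip-like organelles on multiciliated cells of the conducting airways, and their beat carries mucus out of the lung. Their core, the axoneme, is a ring of microtubule doublets around a central pair. Dynein arms on the doublets make the force, radial spokes and the nexin-dynein regulatory complex set its timing, and proteins inside the doublets hold them together. The forkhead factor Foxj1 and RFX factors turn on much of this gene set as airway cells become ciliated, which in the mouse begins before birth.

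RFX factors bind a DNA element called the X-box, and 1 form of its half-site reads GTTGCC, or GGCAAC on the other strand. RefSeq promoters (GRCm38.p6, 250 bases before to 50 bases after a transcription start) were in the table used here for 35 of the 44 genes. Of these 35, 17 (48.6%) held the half-site on either strand, beside 14.1% of the 27025 genes in the table. Those without a promoter in the table were Foxj1, Dnah3, Rsph1, Rsph4a, Cfap54, Cfap53, Cfap65, Tppp3 and Rp1. A forkhead sequence, TGTTTAC or GTAAACA, was in 3 of the 35 (8.6%) and in 4.1% of all genes in the table. The half-site lay within 70 bases before to 50 bases after a start in 14 of the 17. The same count was not made over all genes, so this position is not shown to be particular to cilia genes. The stretches below show where the half-site sits in genes of different roles, namely a regulator of cilia genes (Rfx2), a gene for making centrioles (Ccno), a spoke gene (Lrrc23), a central-pair gene (Spag16), a doublet-bound protein (Cfap44), a tip protein (Sntn) and a tektin (Tekt2). Each is 46 bases long, is written 5′ to 3′ on the strand of the gene with the half-site in capitals, and lies before the gene in a place where GENCODE M21 has no gene. 
Rfx2, chr17:56831099-56831144, minus strand: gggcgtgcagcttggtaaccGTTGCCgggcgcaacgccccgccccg
Ccno, chr13:112987563-112987608, plus strand: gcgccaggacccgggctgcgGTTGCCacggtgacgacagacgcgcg
Lrrc23, chr6:124779741-124779786, minus strand: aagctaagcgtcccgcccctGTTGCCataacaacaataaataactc
Spag16, chr1:69826847-69826892, plus strand: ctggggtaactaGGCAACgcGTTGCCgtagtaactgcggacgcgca
Cfap44, chr16:44394650-44394695, plus strand: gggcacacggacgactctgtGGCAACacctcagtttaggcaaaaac
Sntn, chr14:13670790-13670835, plus strand: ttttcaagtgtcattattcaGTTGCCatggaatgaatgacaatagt
Tekt2, chr4:126325759-126325804, minus strand: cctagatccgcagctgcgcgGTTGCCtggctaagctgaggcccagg
The half-site shown begins 39 bases before a start in Lrrc23 and 66 in Sntn, and farther off in the others, at 96 bases in Tekt2, 103 in Spag16, 116 in Rfx2, 129 in Cfap44 and 219 in Ccno. Stretches were shown only where they lay wholly before the gene, so most half-sites near a start, among them a nearer one in Cfap44 and in Tekt2, are not shown. Ccno, Rfx2 and Spag16 are the 3 genes whose half-sites all lay more than 70 bases before a start. In Spag16 the stretch held the half-site in both orientations. A match of letters is a description of the sequence and does not show that a factor was bound there.

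The libraries held 22822261 to 35002061 read pairs on genes, except TO 1, which held 270078. The comparison between groups used 6 libraries, controls 1, 2 and 4 and TO 2, 3 and 4, as the study's own plot of the mRNA-seq did. Depth set TO 1 apart, but control 3 held 32382284 read pairs on genes, and why that plot left it out was not given. Values of control 3 and TO 1 are given beside those of the 6. Values are in CPM, the read pairs of a gene scaled to all those on genes in the library, after TMM factors. In TO 1 the 44 genes had a median of 3 reads and at most 21, with 4 of them at 0. A count of 0 there allows a level of up to 10.3 CPM (3 counts, with the same TMM factors), against 0.0853 to 0.131 CPM in the other libraries, for counting error only. No marker of general epithelium, AT1, AT2 or club cells was at 0 in any library, which alone does not show the tissue. The AT2 markers summed to 6486 CPM in TO 1 and to 8642 to 19832 CPM in the other libraries. The defining genes of ciliated cells, Foxj1, Tekt1, Rsph1, Ccdc39, Dnah5 and Sntn, were read in all 8. In TO 1 they had only 15, 9, 3, 6, 2 and 1 reads, in that order. The 44 genes together took 0.106% to 0.140% of the reads on genes outside TO 1. In whole lung, fewer ciliated cells and less RNA per ciliated cell cannot be told apart. The labels do not say whether lungs of a group came from separate litters, so the p-values measure the spread between these samples.

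No cilia gene was called different between TO and control lung by edgeR's quasi-likelihood test (Benjamini-Hochberg adjusted p under 0.1), nor was any other gene (0% of the 21859 tested). All 44 were tested, and their adjusted p-values ran from 0.907 to 0.999. The estimates leaned to 1 side: the log2 fold change of TO against control was above 0 for 36 of the 44 (81.8%), beside 49.3% of all genes tested, with a median of 0.18 beside -0.0045. They ran from -0.31 for Dnah11 to 0.86 for Sntn. At an unadjusted p under 0.05 there were 3 genes, all with higher means in TO (6.82% of the 44, beside 5.14% of all genes tested, of which 3.07% were higher and 2.07% lower). They were the dynein genes Dnah5 and Dnah12 and the tip protein gene Sntn, each with a Benjamini-Hochberg adjusted p of 0.907 in the edgeR fit. DESeq2 called 44 genes in all (0.202%) and limma-voom 0, and no gene of this list was among them.

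The error of the fit limited how large a change could have gone unseen. Standard errors of the log2 fold change were 0.12 to 0.35. Each was worked back from edgeR's test, as the size of the log2 fold change over the square root of the F statistic. The 95% intervals were built from these errors. The 95% interval lay wholly above a halving for all 44 genes (65.8% of all genes tested) and wholly below a doubling for 41 (61.7%), the exceptions being Rsph4a, Sntn and Rp1. With control 3 added the intervals cleared a halving for 44 genes and a doubling for 42, and with all 8 libraries for 43 and 43. A change of less than 2-fold in most of these genes was within the intervals.

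**Figure D1:**
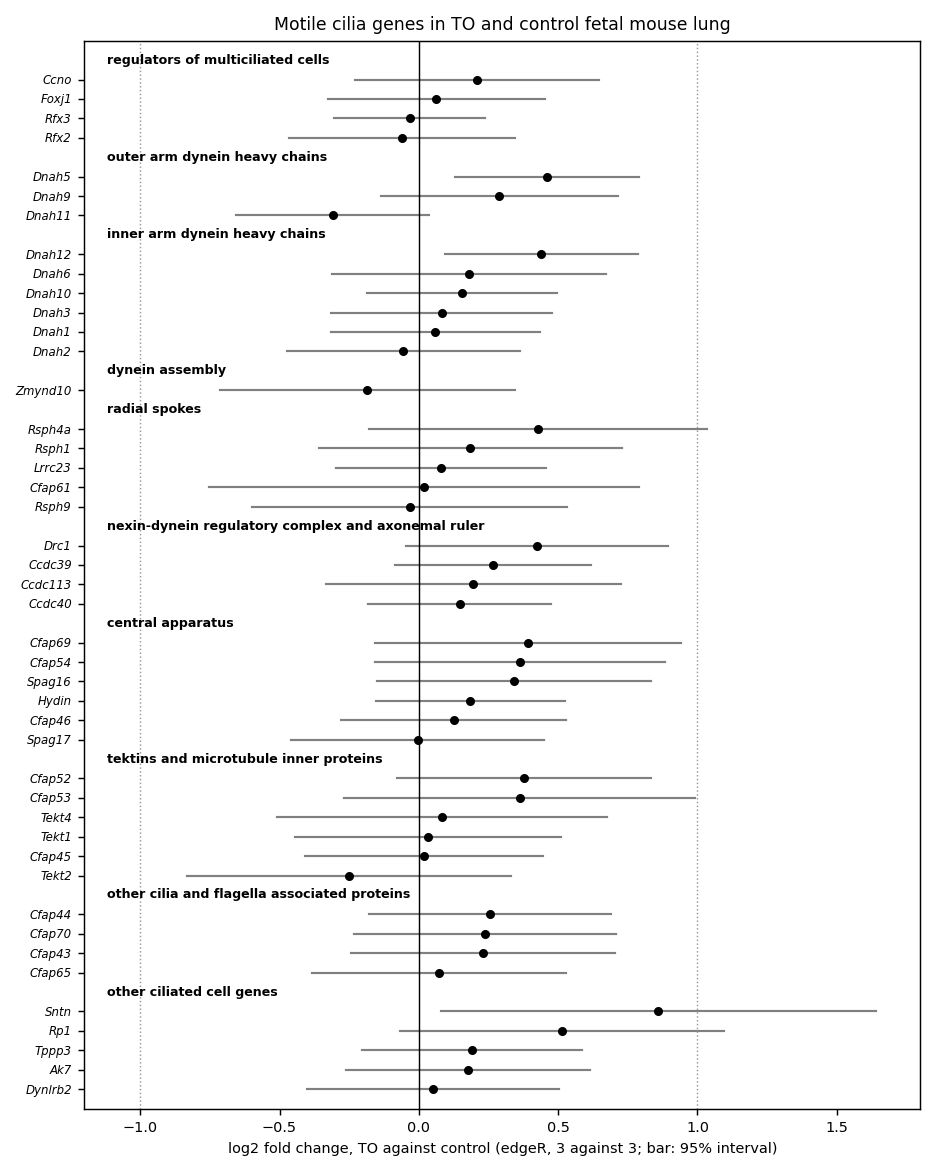
Log2 fold change of TO against control lung (horizontal axis) for each of the 44 genes, grouped by role, from the edgeR fit of 3 control and 3 TO libraries, with bars for the 95% interval and dotted lines at a halving and a doubling. Points lie right of 0 for 36 genes, and the interval excludes 0 for Dnah5, Dnah12 and Sntn before adjustment.

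Among the regulators the log2 fold change was above 0 for 2 of 4, with a median of 0.015. Foxj1 (chr11:116330704-116335399, minus strand), the forkhead factor that commits a cell to motile cilia, was at 63.4, 80.6, 63.6 and 69.1 CPM in controls 1 to 4 and at 51.5, 91.7, 74.0 and 57.3 CPM in TO 1 to 4. The groups overlapped, since TO 2 was the highest library and TO 1 and TO 4 the lowest. The mean was 71.0 ± 8.73 CPM in control and 74.3 ± 17.2 CPM in TO (SD, n = 3 each). The log2 fold change was 0.06 ± 0.17 (SE), with a 95% interval of -0.33 to 0.45 and an edgeR adjusted p of 0.98. Rfx3, an RFX factor that primary cilia also need, was the steadiest of the 44, with a range of 52.2 to 63.2 CPM over the 7 deep libraries and a log2 fold change of -0.03. Rfx2, another RFX factor, was at -0.06, and Ccno, which is required for the massive making of centrioles in multiciliated cells, was at 0.21.

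The outer dynein arms, which set the beat frequency, gave both the clearest gene above 0 and the lowest estimate of the list. Dnah5, a heavy chain of the outer arm whose loss is a common cause of primary ciliary dyskinesia, was at 25.4, 20.4, 32.0 and 22.8 CPM in controls 1 to 4 and at 6.87, 29.6, 34.5 and 30.4 CPM in TO 1 to 4. Within the 6 libraries the TO lungs all lay above the controls. Control 3 lay above TO 2 and TO 4, so the groups overlapped once it was added. The means were 22.9 ± 2.50 CPM in control and 31.5 ± 2.65 CPM in TO (SD, n = 3 each), a log2 fold change of 0.46 ± 0.15 (SE, edgeR adjusted p = 0.907).

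Dnah11, the heavy chain of outer arms near the base of the cilium, went the other way. It was at 37.1, 37.4, 36.3 and 37.9 CPM in controls 1 to 4 and at 17.2, 24.8, 35.5 and 30.5 CPM in TO 1 to 4. Every TO lung was below every control lung, TO 3 by less than 1 CPM, and the controls were nearly level. The value in TO 1 came from only 5 reads. The means were 37.5 ± 0.406 CPM in control and 30.3 ± 5.37 CPM in TO (SD, n = 3 each), and the log2 fold change was -0.31 ± 0.15 (SE) with an unadjusted p of 0.074 and an edgeR adjusted p of 0.907. It was the 1 gene of the 44 whose groups stayed apart when all 8 libraries were used, beside 1.21% of all genes tested that were lower without overlap in the 8, and no cilia gene was higher without overlap there (0.737% of all genes). Dnah9, the outer arm chain of the distal cilium, had a log2 fold change of 0.29 and overlapping groups.

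Of the 6 inner arm heavy chains, which shape the waveform, 5 had a log2 fold change above 0, with a median of 0.12. Dnah10, a chain of the double-headed inner arm and the most abundant of them in CPM, was at 64.3, 71.0, 80.1 and 72.0 CPM in controls 1 to 4 and at 54.9, 76.0, 93.8 and 61.7 CPM in TO 1 to 4. TO 3 was the highest of the deep libraries and TO 4 the lowest, on either side of the controls. The means were 69.1 ± 4.18 and 77.2 ± 16.1 CPM (SD, n = 3 each), with a log2 fold change of 0.16 ± 0.15 (SE, edgeR adjusted p = 0.936). Dnah12, a single-headed inner arm chain named here after its values were seen, was at 24.3, 23.0, 41.4 and 22.3 CPM in controls 1 to 4 and at 27.5, 31.0, 37.0 and 26.6 CPM in TO 1 to 4. All 3 deep TO lungs lay above controls 1, 2 and 4, and control 3 lay above every TO lung. Its log2 fold change was 0.44 ± 0.15 (SE) in the 6 libraries. The other inner arm chains ran from -0.06 for Dnah2 to 0.18 for Dnah6.

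Zmynd10, a cytoplasmic factor that helps to assemble dynein arms before they enter the cilium, was at 15.0, 24.9, 13.8 and 15.4 CPM in controls 1 to 4 and at 13.7, 18.0, 17.8 and 13.0 CPM in TO 1 to 4. Control 2 stood above all other libraries, and without it the TO lungs spanned the remaining controls. The log2 fold change was -0.18 ± 0.23 (SE, edgeR adjusted p = 0.955), and without control 2 it was 0.10. Of its exon bases 10.1% are shared with another annotated gene.

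Of the radial spoke genes, 4 of 5 lay above 0 on the log2 scale, and the median was 0.079. Lrrc23, a protein of the spokes, whose promoter holds the half-site shown above, was at 67.4, 84.1, 76.8 and 75.3 CPM in controls 1 to 4 and at 48.1, 96.3, 82.5 and 61.2 CPM in TO 1 to 4. TO 2 was the highest and TO 1 and TO 4 the lowest, so the controls lay inside the spread of TO. The means were 75.6 ± 8.33 and 80.0 ± 17.7 CPM (SD, n = 3 each), and the log2 fold change was 0.08 ± 0.17 (SE, edgeR adjusted p = 0.975). The spoke-head genes Rsph1, Rsph4a and Rsph9 were at 0.18, 0.43 and -0.03, and Cfap61, another spoke protein, was at 0.02.

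All 4 genes of the nexin-dynein regulatory complex and of the molecular ruler had a log2 fold change above 0, with a median of 0.23. Ccdc39, which with Ccdc40 forms the ruler that spaces spokes and inner arms along the doublet, was at 44.9, 45.7, 47.5 and 44.2 CPM in controls 1 to 4 and at 20.6, 60.6, 60.5 and 41.4 CPM in TO 1 to 4. The controls were nearly level, while TO 2 and TO 3 lay above and TO 1 and TO 4 below all of them. Of the exon bases of Ccdc39, 16.9% are shared with another gene, Ttc14. The means of Ccdc39 were 45.0 ± 0.746 and 54.2 ± 11.1 CPM (SD, n = 3 each), with a log2 fold change of 0.27 ± 0.16 (SE, edgeR adjusted p = 0.907). Its partner Ccdc40 was at 0.15, Drc1, a backbone of the regulatory complex, at 0.42, and Ccdc113, a coiled-coil protein of cilia, at 0.20 on the same scale.

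The central apparatus, which sends signals out to the spokes, had 5 of 6 genes above 0 and a median log2 fold change of 0.26. Cfap69, a protein of this apparatus, was at 28.3, 30.4, 37.2 and 22.6 CPM in controls 1 to 4 and at 17.2, 29.7, 51.0 and 26.4 CPM in TO 1 to 4. TO 3 alone stood above the controls. The means were 27.1 ± 4.02 and 35.7 ± 13.4 CPM (SD, n = 3 each), with a log2 fold change of 0.39 ± 0.24 (SE, edgeR adjusted p = 0.907). Cfap54, Spag16, Hydin and Cfap46 were at 0.36, 0.34, 0.19 and 0.12, and Spag17 was at -0.0032.

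Tektins and the other proteins bound inside the doublets had 5 of 6 genes above 0 and a median log2 fold change of 0.058. Cfap45, an inner protein of the doublet, was at 19.3, 23.6, 19.2 and 19.8 CPM in controls 1 to 4 and at 13.7, 26.7, 19.1 and 17.9 CPM in TO 1 to 4. TO 2 was above all controls and the other TO lungs below all of them, and the log2 fold change was 0.02 ± 0.19 (SE, edgeR adjusted p = 0.995). Tekt2, a filament protein of the doublet, was at 6.26, 8.81, 6.01 and 8.25 CPM in controls 1 to 4 and at 0, 5.93, 8.31 and 5.43 CPM in TO 1 to 4. The groups overlapped through TO 3, and the value of 0 in TO 1 lies under the limit of 10.3 CPM given above. The log2 fold change was -0.25 ± 0.26 (SE, edgeR adjusted p = 0.937), and 20.8% of its exon bases are shared with the neighbouring gene Gm12945. Cfap52, an inner protein named after its values were seen, was at 10.5, 10.1, 9.60 and 8.01 CPM in controls 1 to 4 and at 3.43, 14.3, 11.2 and 11.5 CPM in TO 1 to 4. All 3 deep TO lungs lay above all 4 controls, with a log2 fold change of 0.38 ± 0.20 (SE). Tekt1 and Tekt4 were at 0.03 and 0.08, and Cfap53, which is also needed for left-right patterning, was at 0.36.

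The 4 other cilia and flagella associated proteins were all above 0, with a median log2 fold change of 0.23. Cfap65 was at 43.1, 62.5, 61.6 and 54.3 CPM in controls 1 to 4 and at 27.5, 54.2, 71.9 and 42.5 CPM in TO 1 to 4. TO 3 was above and TO 1 and TO 4 below the controls, and the log2 fold change was 0.07 ± 0.20 (SE, edgeR adjusted p = 0.981). Cfap43 and Cfap44, which tie inner arm dynein to the doublet, were at 0.23 and 0.25, and Cfap70, a protein of the outer arm region, was at 0.24.

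The 5 remaining genes of ciliated cells were all above 0, with a median log2 fold change of 0.19. Sntn encodes sentan, a protein at the tip of airway cilia, and was at 4.16, 4.13, 6.91 and 2.39 CPM in controls 1 to 4 and at 3.43, 7.92, 7.36 and 4.15 CPM in TO 1 to 4. TO 2 and TO 3 were above all controls, control 3 came next, and TO 4 was level with controls 1 and 2. The means were 3.56 ± 1.02 and 6.48 ± 2.03 CPM (SD, n = 3 each), and the log2 fold change of 0.86 ± 0.35 (SE, 95% interval 0.08 to 1.64, edgeR adjusted p = 0.907) was the largest of the 44.

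Rp1, a microtubule protein best known from the photoreceptor axoneme, was at 6.04, 5.56, 8.49 and 4.16 CPM in controls 1 to 4 and at 0, 8.36, 8.18 and 6.03 CPM in TO 1 to 4. Control 3 was the highest library and the groups overlapped, with a log2 fold change of 0.51 ± 0.26 (SE, edgeR adjusted p = 0.907). Tppp3, which binds and bundles microtubules, was at 69.1, 92.6, 98.4 and 64.1 CPM in controls 1 to 4 and at 72.1, 101, 87.5 and 69.5 CPM in TO 1 to 4. Its groups lay over each other across the whole range, with a log2 fold change of 0.19 ± 0.17 (SE, edgeR adjusted p = 0.93). Ak7, an adenylate kinase of cilia, was at 0.18, and Dynlrb2, a light chain of dynein, at 0.05.

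**Figure D2:**
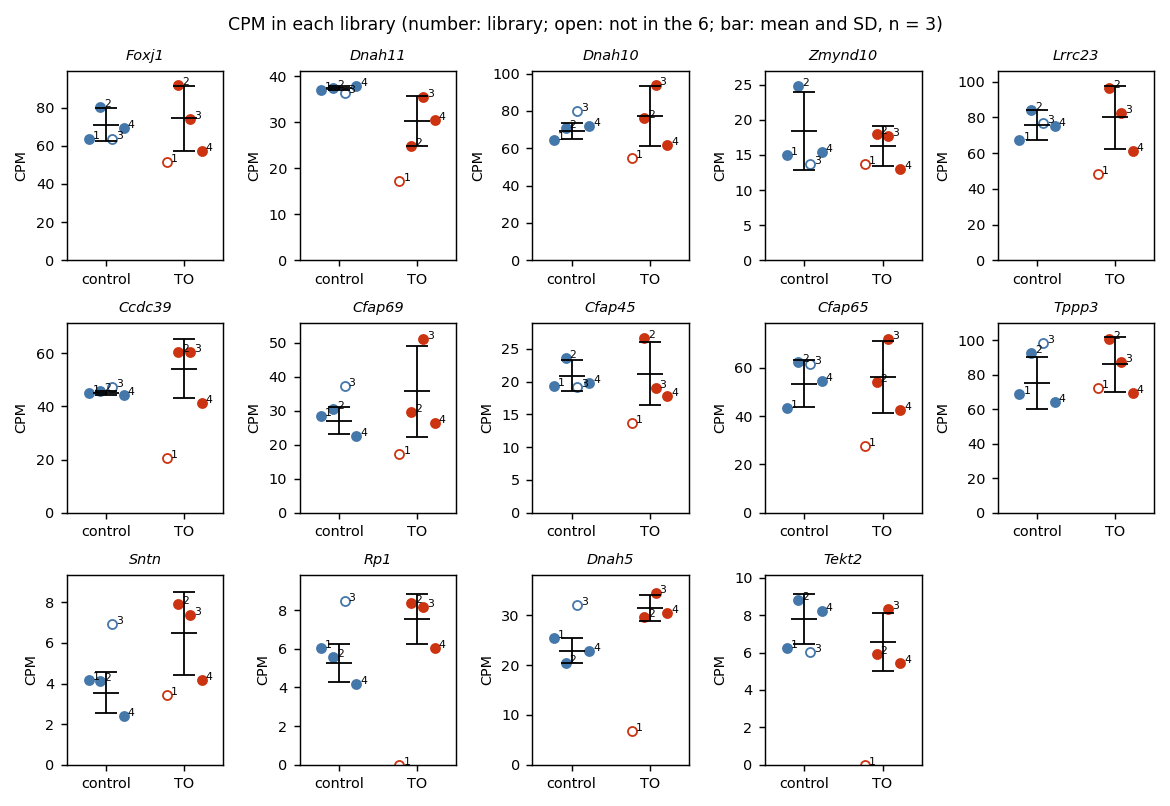
CPM (vertical axis, from 0) of 14 genes in each library, with blue for control and red for TO, the library number beside each point, open symbols for control 3 and TO 1, and bars for mean and SD of the 3 filled points. For Dnah5 all filled TO points lie above the filled control points, for Dnah11 all TO points lie below the controls, and for the others the groups overlap.

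Counted over the whole list, the groups did not overlap for 4 of the 44 genes in the 6 libraries. Dnah5, Dnah12 and Cfap52 were higher in every TO lung (5.06% of all genes tested were), and Dnah11 was lower in every TO lung (5.82% were). With control 3 added, only Cfap52 remained on the higher side (2.33% of all genes) and Dnah11 on the lower side (1.61%). The share of cilia genes without overlap was thus near that of genes in general.

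The 44 genes varied together among the TO lungs. TO 2 was the highest of the 6 libraries for 22 genes and TO 3 for 16, while TO 4 was the highest for 0 and the lowest for 21. TO 2 and TO 3 were both above all 3 controls for 21 genes, and TO 4 was below both of them for 38 and below all 3 controls for 22. These counts were not made over all genes, so whether this order of libraries is particular to cilia genes was not tested. Averaged over the 44 genes, log2 CPM was 4.67 and 4.68 in TO 2 and TO 3 and 4.23 in TO 4. In controls 1, 2, 3 and 4 it was 4.37, 4.45, 4.58 and 4.27. Control 3 was thus the closest to TO 2 and TO 3, and TO 4 the closest to control 4. Over the 7 deep libraries the highest level of a gene was a median of 1.69 times the lowest, from 1.21 for Rfx3 to 3.32 for Sntn, and it was under 2 times for 36 genes.

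**Figure D3:**
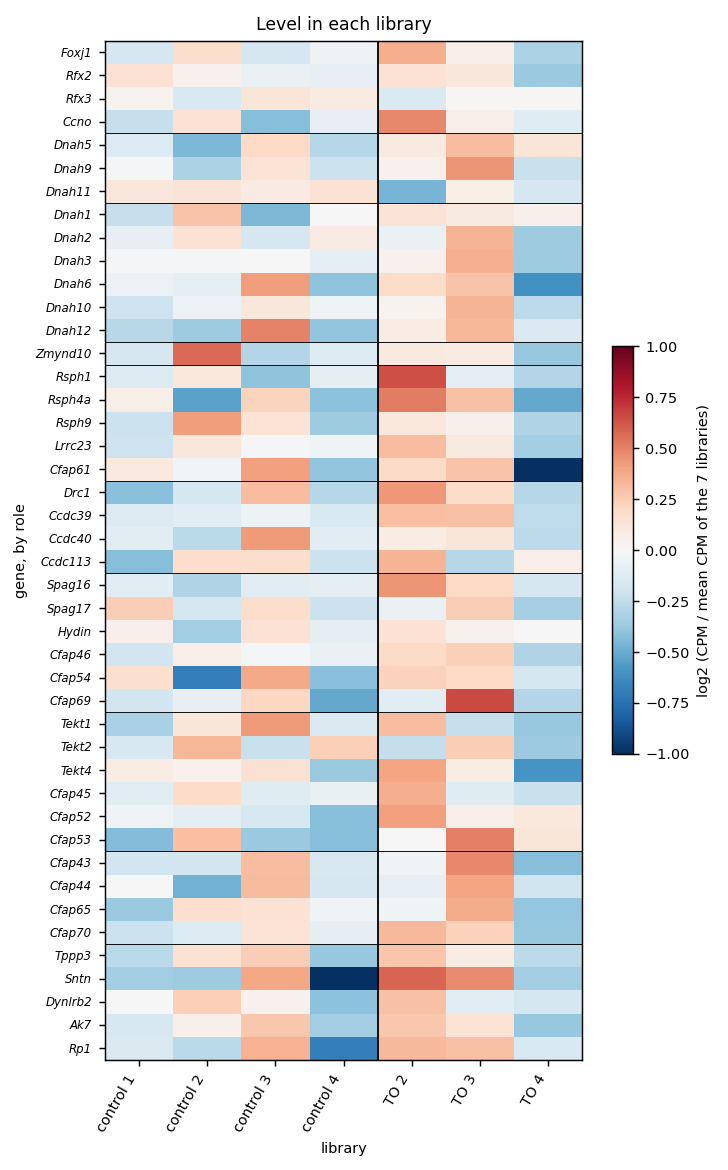
Level of each of the 44 genes (rows, by role) in the 7 deep libraries (columns) as log2 of its CPM over its mean CPM in the 7, with red above and blue below the mean and the colour scale ending at -1 and 1. The columns of TO 2 and TO 3 are mostly red and that of TO 4 mostly blue, and the lowest value, for Sntn in control 4 (-1.15), lies past the end of the scale.

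The single libraries decided the size of the median. Without TO 4 it was 0.32, with 40 genes above 0 and 13 at an unadjusted p under 0.05 by edgeR, all higher in TO (5.41% of all genes were higher at that p in that fit). None of the 44 was called there, where 144 genes in all were (0.692%). Without TO 2 the median was 0.072, with control 3 added it was 0.10, and with all 8 libraries it was 0.027, with 25 genes above 0. When lungs of the same label number were taken as pairs, only numbers 2 and 4 had both lungs among the 6 libraries. The median was then 0.10, resting on those pairs, with 26 genes above 0. With all 8 libraries paired the median was -0.00056, with 21 above 0.

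Levels of different genes were set side by side per kilobase of exon, as means of controls 1, 2 and 4. The most abundant were Dynlrb2 at 47.7, Lrrc23 at 43.6, Tppp3 at 40.7 and Foxj1 at 27.1 CPM per kilobase. Rsph1 and Tekt1 followed at 13.3 and 12.1, and the median of the 44 was 3.65. The dynein heavy chains, which have long mRNAs, lay between 1.38 for Dnah9 and 4.30 for Dnah10, and Rp1 was the lowest at 0.427 CPM per kilobase. The first 3 of this order differed by less than their spread between libraries.

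A further 76 genes of motile cilia, which include multicilin and other early regulators, dynein light and intermediate chains, docking factors and less studied axonemal proteins, were read for comparison. Of these, 73 were tested by edgeR, 46 had a log2 fold change above 0 (63.0%, beside 49.3% of all genes tested), and the median was 0.081, with 0 called by an adjusted p under 0.1. At an unadjusted p under 0.05 there were 4 (5.48%, near the 5.14% of all genes tested), named here after their values were seen: Mlf1, Armc4 and Spag6l with log2 fold changes of 0.68, 0.62 and 0.46, and the dynein heavy chain gene Dnah8 at -0.49. The most abundant, the RFX factor gene Rfx1, was at 53.6, 69.1, 49.1 and 52.4 CPM in controls 1 to 4 and at 41.2, 62.6, 49.9 and 49.5 CPM in TO 1 to 4. Its groups overlapped, and its log2 fold change was -0.11 ± 0.15 (SE, edgeR adjusted p = 0.957). By library the mean log2 CPM of these genes was 3.43 and 3.37 in TO 2 and TO 3, 2.97 in TO 4 and 3.11 to 3.31 in the controls. The half-site of RFX factors was in the promoters of 30 of 59 of them (50.8%).

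Intraflagellar transport and BBSome genes, which serve primary as well as motile cilia and so are used by most cells of the lung, varied less. All 31 were tested, 12 had a log2 fold change above 0, the median was -0.019 and none was called (0 also at an unadjusted edgeR p under 0.05). Ift172, a transport protein and the most abundant of them, was at 84.7, 95.6, 109 and 95.4 CPM in controls 1 to 4 and at 65.2, 90.8, 91.2 and 89.6 CPM in TO 1 to 4. Control 1 lay below the 3 deep TO lungs and the other controls above them. Its log2 fold change was -0.02 ± 0.10 (SE, edgeR adjusted p = 0.987). The mean log2 CPM of the 31 was 5.10 to 5.19 in TO 2 to TO 4 and 5.11 to 5.22 in the controls. The half-site was in the promoters of 13 of 27 of them (48.1%), close to its share in the motile cilia genes.

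Markers of neighbouring epithelial cells were read in the same libraries. Club cell markers had a log2 fold change above 0 for 6 of 6 genes, with a median of 0.77 and no gene called, and their summed level was 2656 and 2484 CPM in TO 2 and TO 3, 1028 CPM in TO 4 and 1057 to 1693 CPM in the 4 controls. AT2 markers were above 0 for 6 of 6 (median 0.45), and their sum was 19832 and 15654 CPM in TO 2 and TO 3, 8642 CPM in TO 4 and 9439 to 15632 CPM in the controls. Both lists were thus high in TO 2 and low in TO 4, as were the cilia genes. AT1 markers were low in TO 4 as well, with a sum of 978 CPM. Their sum was 1936 and 1617 CPM in TO 2 and TO 3 and 1522 to 2240 CPM in the controls. The low level in TO 4 was thus not particular to club, AT2 and cilia genes. Basal markers were above 0 for 5 of 6 (median 0.38), and their sum was 398 and 234 CPM in TO 1 and TO 4, 108 and 124 CPM in TO 3 and TO 2 and 115 to 218 CPM in the controls. Their mean log2 CPM was 2.38, 2.48 and 3.74 in TO 2, 3 and 4 and 3.44, 1.11, 2.33 and 2.20 in controls 1 to 4. General epithelial markers had a median of -0.23, with 1 of 8 above 0 and sums of 2005, 2058 and 1786 CPM in TO 2, TO 3 and TO 4 against 2039 to 2495 CPM in the controls. Markers of AT1 cells (2 of 6 above 0, median -0.045), of neuroendocrine cells (3 of 6, median 0.12) and of airway cartilage (4 of 8 tested, median -0.046) were on both sides of 0, and the cartilage sum was 56.9 to 131 CPM. The part of these cell types in the levels of the cilia genes was not tested.

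**Figure D4:**
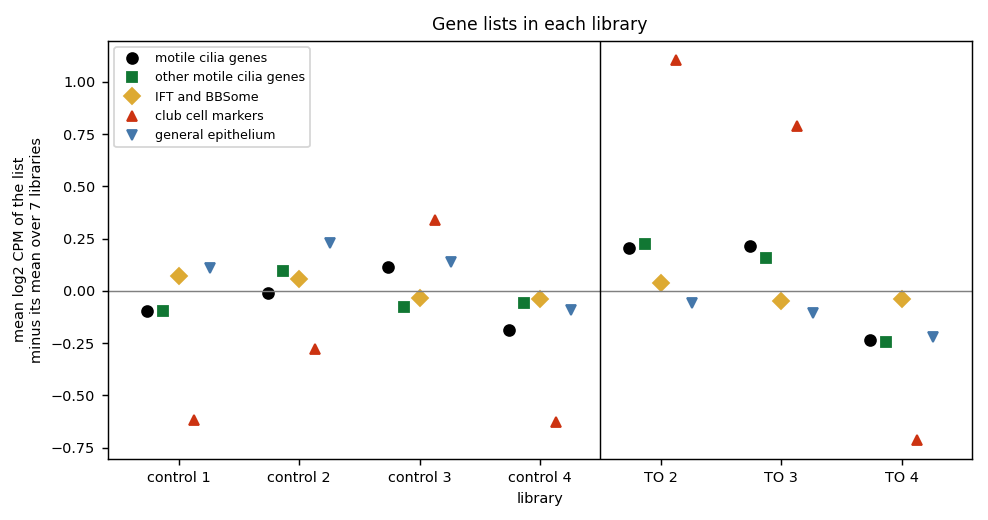
Mean log2 CPM of each gene list minus its mean over the 7 deep libraries (vertical axis) for each library (horizontal axis). The 44 motile cilia genes and the other motile cilia genes stand at 0.16 to 0.22 in TO 2 and TO 3 and at -0.24 in TO 4, the transport genes stay between -0.05 and 0.07, and club cell markers range from -0.71 in TO 4 to 1.11 in TO 2.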

How the data were processed

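Whole-lung RNA of 4 control and 4 TO fetuses was made into NexteraXT libraries and sequenced as paired-end reads by the authors, who aligned them to GRCm38 with STAR. Versions and annotation were not given in the sources used here. The deposited tables hold unnormalized whole-number counts for each gene, and the column for both strands together was used. Pairs on more than 1 gene (5.00% to 5.74%) are not counted, and strand is not used, so genes that overlap lose or share reads. Of the 44 genes, 29 share under 1% of exon bases and 5 share 10% or more. Gene symbols, positions and exon lengths came from GENCODE M21 (54487 of 55385 IDs identical with version).

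A gene entered the test with 5 reads in no fewer than 3 of the 6 libraries, and the test was made with edgeR 4.0.16 in R 4.3.3 (quasi-likelihood test, TMM scaling, Benjamini-Hochberg adjustment over all genes tested, threshold 0.1). Deposited counts were turned into CPM with TMM factors of all 8 libraries, and log2 CPM with a prior count of 2. DESeq2 1.42.0, limma-voom 3.58.1, other scalings, filters, library sets, blocks and the omission of each library were alternatives. The code was tested on simulated data. Reads carry no molecular identifiers, so limits cover counting error only.

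The genes and lists were chosen with earlier results of these data known. Values per library are given for Foxj1, for the gene with the highest mean CPM in each role, for the 3 largest log2 fold changes in each direction (with 5 reads in every library of the fit), for any gene called, and for the most abundant gene of each further list. Of the further motile cilia genes, 3 did not pass the filter. Figures were drawn in Python 3.11.15 with matplotlib 3.10.9.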

Additional observations from a re-analysis of the deposited data

Results flagged for a closer look

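In 4 of 52 groups of 4 libraries a single library lay farther from the rest than Dixon's 95% criterion allows, and chance alone marks about 1 group in 20. Zmynd10 was at 24.9 CPM in control 2, above the other controls. Cfap45 was at 23.6 CPM in the same library, again above the other controls. Ift172 was at 65.2 CPM in TO 1, below the other TO lungs. The mean log2 CPM of the intraflagellar transport and BBSome genes was 4.40 in TO 1, below the other TO lungs, in a library with 270078 read pairs on genes.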

How the results depend on the processing

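No cilia gene was called in any of 17 alternatives, and 19 of the 44 kept the sign of their log2 fold change in all of them, 17 above 0 and 2 below. With each library left out in turn the median of the 44 was 0.072 to 0.32, that of the other motile cilia genes -0.0066 to 0.21 and that of the transport genes -0.060 to 0.0025, with 0 called in each list. The transport median moved to -0.099 with all 8 libraries and to -0.093 with those 8 and a replicate block. Control and TO lungs share label numbers, and same-numbered lungs deviated together with correlations of 0.052, 0.13, 0.16 and 0.071 over 22545 genes. Lungs of unlike number had correlations from -0.16 to 0.097. The main fit did not take the numbers as pairs, and these values do not settle whether they are. TO 1, 2 and 3 correlated best with the control of their own number and TO 4 with control 1 (0.097). With the replicate block 219 genes (1%) were called among all genes in 6 libraries and 3 (0.0133%) in 8. The median of the 44 was then 0.10 with 26 above 0 in 6 libraries and -0.00056 with 21 above 0 in 8. In the 6 libraries only numbers 2 and 4 had both a control and a TO lung. All values from that block in 6 libraries thus rest on those pairs, with control 1 and TO 3 unpaired. A block by the digits that specimen codes share gave a median of 0.035 with 26 above 0. DESeq2 called 44 genes in all and limma-voom 0.

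Log2 fold changes of named genes turned sign in 27 of 272 values, none of them called in either fit. With the replicate block in 6 and in 8 libraries and with the specimen block, Foxj1 was at -0.035, -0.00055 and -0.029, Dnah10 at -0.057, -0.00057 and -0.031, Lrrc23 at -0.045, -0.063 and -0.031, and Cfap65 at -0.27, -0.17 and -0.19. Cfap45 was at -0.035 with the block in 8 libraries. With all 8 libraries Lrrc23 was at -0.010 and Cfap65 at -0.077. With each library left out, Foxj1 ran from -0.11 to 0.23, Zmynd10 from -0.31 to 0.10, Lrrc23 from -0.074 to 0.25, Cfap45 from -0.18 to 0.13, Cfap65 from -0.13 to 0.24, Rfx1 from -0.23 to 0.031 and Ift172 from -0.074 to 0.011. The cause was not tested. TO 1 is too shallow to measure most of these genes, with 28 of 44 under 5 reads.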
